A study of Arabidopsis thaliana with 36 samples.

Results

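The ATG8 family of Arabidopsis thaliana was followed through prolonged darkness in rosette leaves of 2 mutants of branched-chain amino acid catabolism and of wild type. The family was taken as the 9 loci ATG8A (AT4G21980), ATG8B (AT4G04620), ATG8C (AT1G62040), ATG8D (AT2G05630), ATG8E (AT2G45170), ATG8F (AT4G16520), ATG8G (AT3G60640), ATG8H (AT3G06420) and ATG8I (AT3G15580), chosen by locus code. All 9 were found among the 28774 loci of the count tables, and all 9 were among the 19457 loci with enough counts to be tested. Plants of the mutants hml1-2 and ivd1-2 and of wild type (WT, Col CS60000) were grown on soil under 8 h of light and 16 h of darkness a day until they were 5 weeks old, and rosette leaves 9 to 12 were sampled. Sampling of each genotype began at 0 h, went on through continuous darkness at 6, 24, 48 and 72 h, and included plants kept 72 h longer in the 8 h light and 16 h dark cycle, called 72 h of light here. Each of the 18 groups had 2 libraries, 36 in all. The hml1-2 and ivd1-2 lines are named for HML1 and IVD, which encode hydroxymethylglutaryl-CoA lyase and isovaleryl-CoA dehydrogenase, mitochondrial enzymes of leucine breakdown.

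ATG8 proteins are small ubiquitin-like proteins that are attached to the lipid phosphatidylethanolamine in the membrane of the growing autophagosome, the vesicle that carries cytoplasm to the vacuole for breakdown. The protease ATG4 first trims the ATG8 carboxyl terminus to expose a glycine, and ATG7, ATG3 and the ATG12-ATG5-ATG16 complex then carry out the lipidation. On the membrane, ATG8 takes part in membrane growth and docks receptors that bring in cargo. Leaves held in darkness run short of sugars, and autophagy is known to recycle proteins and organelles in them.

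The members differ at the end of the protein that ATG4 acts on, and the last 60 bases of each coding sequence, stop codon included, are given to show it. They were read on the coding strand from the TAIR10.1 reference of RefSeq, and each run lies in a single exon. The capitals mark the codon of the glycine that follows threonine and phenylalanine, to which the lipid is attached.
ATG8A (chr4:11656750-11656809, plus strand): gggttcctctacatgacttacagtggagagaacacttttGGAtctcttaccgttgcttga
ATG8B (chr4:2328663-2328722, minus strand): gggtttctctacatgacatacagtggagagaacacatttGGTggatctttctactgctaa
ATG8C (chr1:22934194-22934253, plus strand): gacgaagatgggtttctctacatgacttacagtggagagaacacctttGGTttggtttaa
ATG8D (chr2:2083211-2083270, minus strand): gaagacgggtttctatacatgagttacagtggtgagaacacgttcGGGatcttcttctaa
ATG8E (chr2:18625467-18625526, plus strand): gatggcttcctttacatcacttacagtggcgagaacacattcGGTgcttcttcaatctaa
ATG8F (chr4:9306882-9306941, minus strand): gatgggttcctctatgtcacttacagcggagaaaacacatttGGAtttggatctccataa
ATG8G (chr3:22416912-22416971, plus strand): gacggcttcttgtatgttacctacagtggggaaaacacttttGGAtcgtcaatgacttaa
ATG8H (chr3:1955219-1955278, minus strand): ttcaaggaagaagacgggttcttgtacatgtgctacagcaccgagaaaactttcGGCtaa
ATG8I (chr3:5274075-5274134, minus strand): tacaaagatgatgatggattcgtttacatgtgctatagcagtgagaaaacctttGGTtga
In ATG8H and ATG8I the glycine codon stands directly before the stop codon, so that no residue follows it. After the glycine, ATG8A and ATG8B encode 5 further residues, ATG8E, ATG8F and ATG8G encode 4, ATG8D encodes 3 and ATG8C encodes 2. These ends, and the lengths and identities that follow, were read from 1 transcript model per locus. ATG8A, ATG8C, ATG8D and ATG8F each have 2 coding models in the reference. The proteins of the models used have 115 residues (ATG8I) to 122 residues (ATG8A, ATG8B and ATG8E). Protein identity was highest between ATG8A and ATG8B, at 87.7%, and was 83.5% between ATG8E and ATG8F and 68.7% between ATG8H and ATG8I. The longest run of identical bases in the transcripts of any pair was 53 bases, between ATG8A and ATG8B, and no other pair shared a run over 29 bases. ATG8A overlaps AT4G21990 on the opposite strand by 27 bases and ATG8I overlaps AT3G15578 on the opposite strand by 183 bases. The sources used here give no strand setting for the counting, so reads in those overlaps may belong to either gene.

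Levels are given in CPM, a gene's share of its library's gene counts on the trimmed-mean scale of edgeR. Libraries held 13638597 to 49398596 gene counts, with a median of 29254916.5, and the fewest counts of any member in any library were 44, for ATG8G. In the library labels the 2 libraries of a group are called replicates, and nothing there says that they came from separate plants, so the p-values measure only the spread between these libraries. The 2 genes named by the alleles were read as a check of the labels. IVD had 299.6 and 453.5 CPM in ivd1-2 after 72 h of darkness, against 2048 and 2026 CPM in WT, and HML1 ranged over 46.36 to 68.54 CPM in hml1-2 libraries, against 77.93 to 132.8 CPM in WT libraries, with no overlap. The 3 mesophyll markers, which encode parts of the photosynthetic machinery, summed to 464.5 to 18030 CPM in the 24 dark libraries and to 28780 to 45100 CPM in the 12 libraries of 0 h and 72 h of light. Epidermis markers summed to 216.1 to 716.9 CPM in darkness, against 600.9 to 1291 CPM at 0 h and in light, guard cell markers to 12.58 to 47.04 CPM, against 36.4 to 53.25 CPM, and phloem markers to 185.9 to 740.9 CPM, against 253.8 to 709.8 CPM. At 72 h of darkness against light, 3 of 3 epidermis and 2 of 3 guard cell markers fell in each genotype. Of all genes tested, 32.5% fell in hml1-2, 32.1% in ivd1-2 and 31.7% in WT. Of 3 phloem markers, 1 rose in hml1-2, 1 fell in WT and 0 passed in ivd1-2. Root markers summed to 7.902 to 62.02 CPM in darkness, against 6.592 to 13.11 CPM at 0 h and in light, and flower markers to 0.799 to 14.8 CPM, against 0.0776 to 0.990 CPM. CASP2 among the root markers and PI among the flower markers reached 60.59 and 14.63 CPM, while CASP1 was at 0 in 28 of 36 libraries and AP3 at 0 in 17. At 72 h of darkness against light, 2 root markers were tested, and 1 rose and 1 fell in each genotype. Of 2 flower markers tested, 1 rose in each genotype, and the other fell in hml1-2 and did not pass in ivd1-2 or WT. The part of these markers in the results was not tested. One library stood apart, replicate 1 of ivd1-2 at 72 h of darkness. The correlation of log2 CPM over genes with its partner was 0.884, while the other 17 pairs had 0.931 to 0.989. Its 5 salicylate defence markers summed to 1266 CPM, against 6.20 CPM in its partner. These 5 did not move alike. In ivd1-2 at 72 h of darkness against WT 2 of 5 were higher and 0 lower, against 12.6% and 10.7% of all genes. Their log2 differences ran from -4.29 to 9.02. Differences of ATG8H that rest on it are given with and without it. Other ivd1-2 results at 72 h of darkness are given with it unless stated.

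After 72 h of darkness every ATG8 transcript was more abundant than after 72 h of light, in each genotype. In hml1-2, 9 of 9 members rose, against 31.4% of all genes tested, in ivd1-2 9 of 9 rose against 31.7%, and in WT 9 of 9 rose against 31.9%. The median log2 fold change of the 9 members was 1.78 in hml1-2, 1.81 in ivd1-2 and 1.73 in WT, and the median over all genes was -0.05, 0.01 and 0.01 in the same genotypes. In a fit of only the 2 ivd1-2 groups, with few degrees of freedom, 2 of 9 members passed in ivd1-2. A member was called at an adjusted p under 0.05, by edgeR's quasi-likelihood test and the Benjamini-Hochberg method over the whole table, with no minimum fold. In bulk leaf RNA, a change in the share of a cell type and a change in RNA per cell cannot be told apart.

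The separation held library by library. For 9 of 9 members, each of the 24 dark libraries lay above each of the 12 libraries of 0 h and 72 h of light, and 14.1% of all genes tested did the same. ATG8B ranged over 25.23 to 473.2 CPM in darkness, against 6.345 to 9.886 CPM at 0 h and in light. ATG8F ranged over 317.1 to 530.6 CPM in darkness, against 145.2 to 184.4 CPM at 0 h and in light. The lowest dark value was thus 25.23 CPM against a highest light value of 9.886 CPM for ATG8B, and the ranges of ATG8F were likewise apart. ATG8C ranged over 50.37 to 78.78 CPM in darkness, against 27.89 to 36.82 CPM at 0 h and in light. ATG8G, the member with the fewest counts, ranged over 7.373 to 14.06 CPM in darkness, against 3.057 to 7.286 CPM at 0 h and in light. Both ATG8G ranges nearly met, at 7.373 CPM in an hml1-2 library after 6 h of darkness and 7.286 CPM in an hml1-2 library at 0 h.

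**Figure D1:**
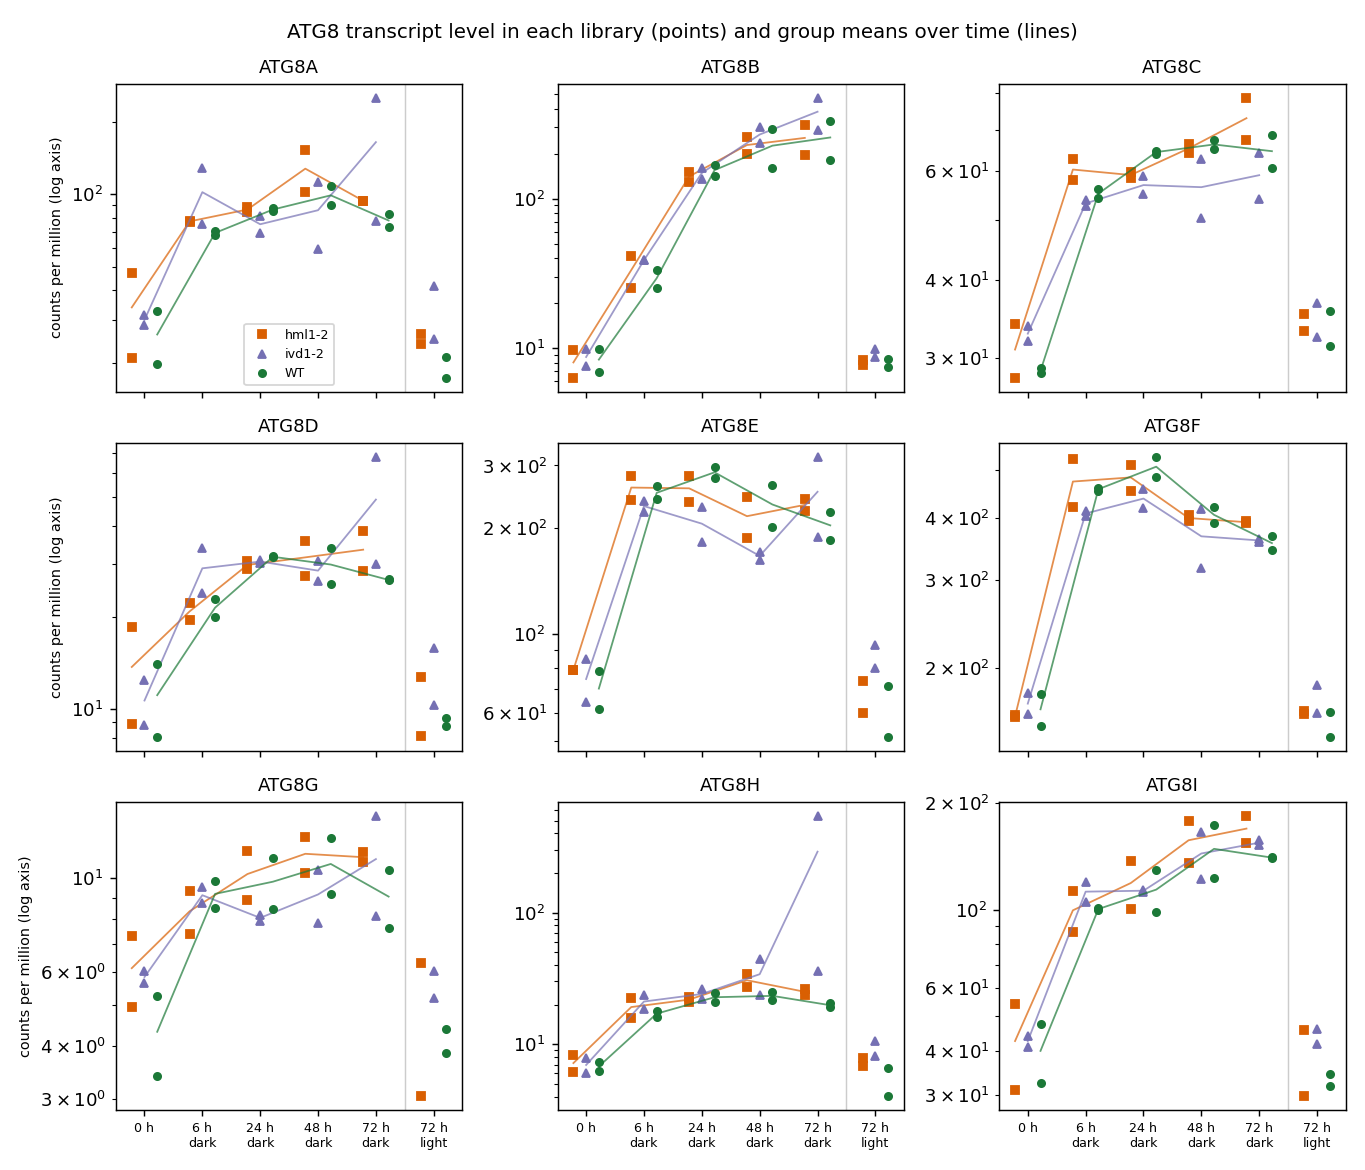
Level in CPM (log axis, scaled separately in each panel) of each ATG8 member in every library, by time in darkness from 0 to 72 h (0, 6, 24, 48, 72 h) and then for 72 h of light. Squares are hml1-2, triangles ivd1-2 and circles WT libraries, and the lines join group means from 0 h to 72 h of darkness. ATG8B reaches 473.2 CPM in an ivd1-2 library, and 1 ivd1-2 library stands at 545.7 CPM in the ATG8H panel.

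ATG8B, a member with residues to be trimmed, had the largest fold change of the 9 in each genotype. ATG8H came close in ivd1-2 through 1 library, with 545.7 CPM in replicate 1 and 35.97 CPM in replicate 2. Without replicate 1 the log2 fold change of ATG8H in ivd1-2 was 1.96. ATG8B did not rest on that library alone. ATG8B had 196.4 and 312.8 CPM in hml1-2 after 72 h of darkness, against 8.276 and 7.741 CPM after 72 h of light. It had 288.8 and 473.2 CPM in ivd1-2 in darkness, against 8.663 and 9.886 CPM in light, and 180.2 and 332.3 CPM in WT in darkness, against 7.459 and 8.434 CPM in light. The log2 fold change was 4.99 in hml1-2, 5.36 in ivd1-2 and 5.01 in WT (SE 0.39, edgeR quasi-likelihood adjusted p = 7.87e-10), a 32.2-fold rise in WT. The dark and light libraries did not overlap in any genotype.

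ATG8E and ATG8F, which share 83.5% of their residues, also rose, by smaller ratios than ATG8B. ATG8E had 184.3 and 221.9 CPM in WT after 72 h of darkness, against 51.25 and 71.12 CPM after 72 h of light. That is a log2 fold change of 1.73 (SE 0.23, edgeR quasi-likelihood adjusted p = 1.40e-06). ATG8F had 344.1 and 367.3 CPM in WT after 72 h of darkness, against 145.2 and 163.1 CPM after 72 h of light, a log2 fold change of 1.21 (SE 0.14, edgeR quasi-likelihood adjusted p = 1.72e-07). For both genes the dark libraries lay above the light libraries in all 3 genotypes. The 2 dark ivd1-2 libraries of ATG8E were far apart, at 317.7 and 187.8 CPM, against 80.17 and 93.45 CPM in light.

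The 2 members that encode an exposed glycine, ATG8H and ATG8I, also rose. ATG8I had 139.4 and 140.7 CPM in WT after 72 h of darkness, against 34.52 and 31.76 CPM after 72 h of light, a log2 fold change of 2.08 (SE 0.27, edgeR quasi-likelihood adjusted p = 8.81e-07). ATG8H had 20.42 and 19.16 CPM in WT after 72 h of darkness, against 4.057 and 6.55 CPM after 72 h of light, a log2 fold change of 1.90 (SE 0.63, edgeR quasi-likelihood adjusted p = 0.0120). ATG8H had the largest error of the 9 in the shared fit, which also holds the ivd1-2 library that stood apart.

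Among the other trimmed members, ATG8A, the closest relative of ATG8B, had 73.13 and 82.73 CPM in WT after 72 h of darkness, against 17.34 and 21.11 CPM after 72 h of light. ATG8D had 26.69 and 26.47 CPM in darkness, against 8.744 and 9.271 CPM in light. ATG8C, which carries the shortest tail after the glycine, had 60.59 and 68.6 CPM in darkness, against 31.42 and 35.71 CPM in light. Each of these stood clear of its light level in both libraries. The log2 fold changes in WT were 2.02 for ATG8A (SE 0.44), 1.56 for ATG8D (SE 0.36), 0.94 for ATG8C (SE 0.13) and 1.13 for ATG8G (SE 0.31), with edgeR quasi-likelihood adjusted p-values of 0.000396, 0.000772, 1.65e-06 and 0.00368 in that order.

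**Figure D2:**
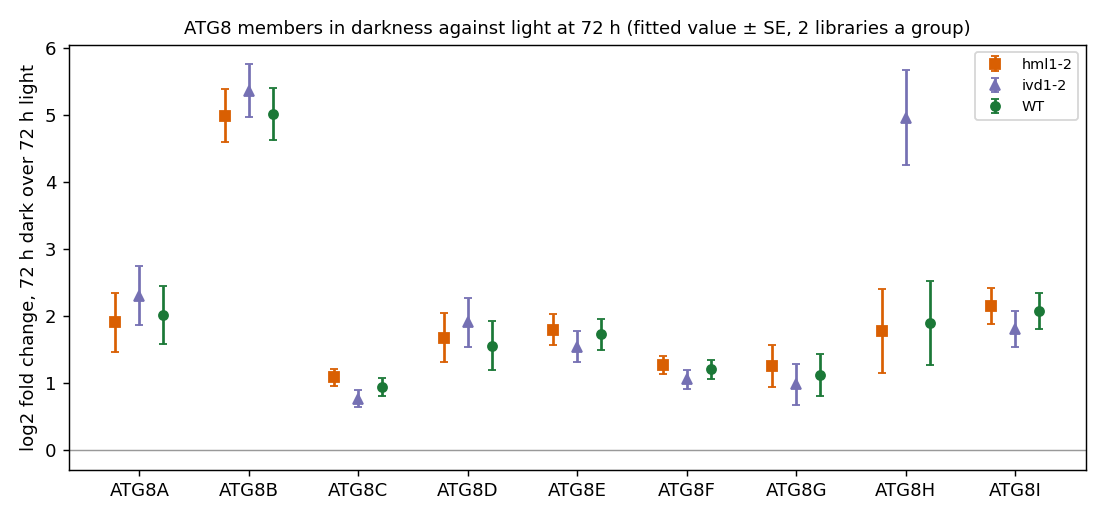
Fitted log2 fold change of each ATG8 member at 72 h of darkness over 72 h of light in hml1-2 (squares), ivd1-2 (triangles) and WT (circles). Bars are standard errors of the fit with 2 libraries a group. ATG8B lies near 5 in each genotype, and ATG8H lies at 4.96 in ivd1-2, against 1.90 in WT. Without replicate 1 of ivd1-2 in darkness the ATG8H value in ivd1-2 was 1.96, which is not drawn.

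The rise was present at the first dark sample. At 6 h against 0 h, 6 of 9 members had risen in hml1-2, 8 of 9 in ivd1-2 and 8 of 9 in WT, against 20.9%, 18.9% and 21% of all genes in those genotypes (edgeR quasi-likelihood adjusted p under 0.05). The members that did not pass were ATG8D, ATG8G and ATG8H in hml1-2 (log2 fold changes of 0.60, 0.44 and 1.41), ATG8G in ivd1-2, and ATG8H in WT (1.33, edgeR quasi-likelihood adjusted p = 0.0972). The sources used here give no sampling hour, so 6 h of darkness and a difference in time of day cannot be told apart. The WT count at 6 h was 5 of 9 when replicate 2 of 0 h or either library of 6 h was left out.

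At 24 h the counts were 8 of 9 in hml1-2, 8 of 9 in ivd1-2 and 9 of 9 in WT, against 25.1%, 24.5% and 26% of all genes. At 48 h they were 9, 8 and 9 of 9, against 28.7%, 27.7% and 27.9%, and at 72 h they were 9 of 9 in each genotype, against 30.9%, 31.7% and 30.3%. Single libraries moved 4 of these counts to 5 of 9: hml1-2 at 24 h without replicate 2 of 0 h or of 24 h, hml1-2 at 72 h without replicate 2 of 0 h or replicate 1 of 72 h, ivd1-2 at 48 h without replicate 1 of 48 h, and WT at 72 h without replicate 2 of 0 h. ATG8G was the member that missed the threshold at 24 h in hml1-2 and at 24 and 48 h in ivd1-2. The WT median log2 fold change of the 9 members was 1.33, 1.62, 1.73 and 1.54 over the 4 dark times from 6 to 72 h, and the median over all genes was -0.07 each time.

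The time courses in WT had their highest means at different times. ATG8B had its highest WT mean at 72 h. It had 9.865 and 6.905 CPM in WT at 0 h, 33.36 and 25.4 CPM at 6 h, 141.2 and 168.9 CPM at 24 h, 159.7 and 292.1 CPM at 48 h and 180.2 and 332.3 CPM at 72 h. Its log2 fold change over 0 h in WT was 1.80, 4.20, 4.74 and 4.92 at the 4 dark times. The replicates of the last pair of times overlapped, so no difference between 48 and 72 h stood out.

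ATG8F had its highest WT mean at 24 h. It had 152.6 and 177.1 CPM in WT at 0 h, 453.1 and 459.8 CPM at 6 h, 530.6 and 482.5 CPM at 24 h, 390 and 420.7 CPM at 48 h and 344.1 and 367.3 CPM at 72 h. ATG8E also had its highest WT mean at 24 h, with 61.45 and 78.82 CPM in WT at 0 h, 240.5 and 261.7 CPM at 6 h, 276 and 297.8 CPM at 24 h, 201.5 and 263.8 CPM at 48 h and 184.3 and 221.9 CPM at 72 h. For both, the WT libraries of 24 h lay above those of 72 h, with no overlap. In the mutants this held for ATG8F but not for ATG8E, which had 236.5 and 280.5 CPM at 24 h and 223.3 and 240.9 CPM at 72 h in hml1-2, and 182.2 and 228.5 CPM at 24 h and 317.7 and 187.8 CPM at 72 h in ivd1-2. The log2 fold change over 0 h in WT was 1.47, 1.62, 1.30 and 1.11 for ATG8F and 1.84, 2.03, 1.73 and 1.54 for ATG8E at the 4 dark times. The difference between 24 and 72 h was not tested.

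ATG8I had higher WT means at 48 and 72 h than at 6 and 24 h, with log2 fold changes over 0 h of 1.32, 1.51, 1.89 and 1.81. ATG8A had 1.39, 1.72, 1.91 and 1.57, ATG8D had 0.95, 1.51, 1.42 and 1.25, and ATG8C had 0.95, 1.17, 1.21 and 1.17. ATG8G had 1.07, 1.17, 1.31 and 1.05, and ATG8H had 1.33, 1.74, 1.77 and 1.54. For these members most of the log2 difference from 0 h was in place at 6 h.

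Successive dark times were also tested against each other. From 6 to 24 h 1 of 9 members passed, ATG8B in each genotype, against 16.7% of all genes in hml1-2, 17.8% in ivd1-2 and 17.5% in WT. These counts do not set the family apart from other genes. The level of ATG8B at 24 h over 6 h gave a log2 fold change of 2.08 in hml1-2 (SE 0.34, edgeR quasi-likelihood adjusted p = 0.000313), 1.94 in ivd1-2 (SE 0.34, adjusted p = 0.000522) and 2.40 in WT (SE 0.35, adjusted p = 8.83e-05). From 24 to 48 h no member passed the edgeR quasi-likelihood test in any genotype, against 4.84% of all genes in hml1-2, 5.84% in ivd1-2 and 2.53% in WT; at an unadjusted p under 0.05 ATG8B was higher in hml1-2 (log2 0.70) and in ivd1-2 (0.85) and ATG8F was lower in WT (-0.32), with adjusted p-values of 0.252, 0.137 and 0.25. From 48 to 72 h no member passed in hml1-2 or WT, where 0.385% and 0.072% of all genes did and no member had an unadjusted p under 0.05. In ivd1-2, where 8.17% did, ATG8H passed with a log2 fold change of 3.09 (edgeR quasi-likelihood adjusted p = 0.0108), which was 0.05 (adjusted p = 1) without the library that stood apart. The ivd1-2 count was also 0 without replicate 2 of 48 h, and it was 4 without replicate 2 of 72 h.

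In the light cycle no change of the family was detected. At 72 h of light against 0 h, 0 of 9 members passed the edgeR quasi-likelihood test in hml1-2, ivd1-2 or WT, against 0% of all genes in each, and DESeq2 also gave 0 members. At an unadjusted p under 0.05 there were still 0 members, and 747, 237 and 666 genes of the whole table in those genotypes. The log2 fold changes of members lay between -0.44 and 0.14 in hml1-2, -0.05 and 0.42 in ivd1-2, and -0.45 and 0.23 in WT.

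The reference bases before the annotated gene starts are given for 4 members, ATG8E and ATG8F as the pair most alike in profile, ATG8H as the member whose 2 libraries parted, and ATG8B as the member with the widest rise. The runs are 250 bases from the TAIR10.1 reference of RefSeq, read toward the gene, and the capitals mark ACGTG or its reverse complement CACGT, the core of the sites that many plant bZIP and bHLH factors bind.
ATG8E (chr2:18624014-18624263, plus strand): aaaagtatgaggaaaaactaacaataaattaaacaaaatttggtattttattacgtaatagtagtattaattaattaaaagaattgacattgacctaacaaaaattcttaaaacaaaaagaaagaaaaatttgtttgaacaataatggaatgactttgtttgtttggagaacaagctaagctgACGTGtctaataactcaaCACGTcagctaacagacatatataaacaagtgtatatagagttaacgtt
ATG8F (chr4:9308539-9308788, minus strand): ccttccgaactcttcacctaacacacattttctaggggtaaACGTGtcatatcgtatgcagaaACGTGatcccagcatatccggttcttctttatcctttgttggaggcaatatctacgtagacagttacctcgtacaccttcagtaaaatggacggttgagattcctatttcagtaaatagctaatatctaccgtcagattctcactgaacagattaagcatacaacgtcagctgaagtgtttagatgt
ATG8H (chr3:1956398-1956647, minus strand): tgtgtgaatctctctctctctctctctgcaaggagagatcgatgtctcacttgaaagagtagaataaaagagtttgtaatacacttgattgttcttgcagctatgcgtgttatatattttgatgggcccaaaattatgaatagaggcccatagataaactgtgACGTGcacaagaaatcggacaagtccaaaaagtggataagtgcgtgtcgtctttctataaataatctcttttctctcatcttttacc
ATG8B (chr4:2330591-2330840, minus strand): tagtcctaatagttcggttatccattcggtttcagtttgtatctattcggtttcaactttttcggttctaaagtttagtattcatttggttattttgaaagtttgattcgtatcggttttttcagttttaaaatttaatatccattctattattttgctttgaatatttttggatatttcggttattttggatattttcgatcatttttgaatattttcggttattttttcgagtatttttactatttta
ATG8E holds ACGTG on either strand at positions -67 and -49 and ATG8F at -209 and -187, counted from the gene start. ATG8H holds it at -87, and ATG8B holds none. Over the family, 5 of 9 members held ACGTG on either strand (also ATG8G and ATG8I), and 22.91% of 27443 windows of the same length did. The longer CACGTG, which contains it, was in 0 of 9 members and 6.49% of windows, AAAATATCT in 0 of 9 and 2.36%, and AGATATTT in 0 of 9 and 4.79%. TTGAC, the core of the W box that WRKY factors bind, was in 2 of 9 members (ATG8E and ATG8I) and 44.93% of windows. These are letter matches in a reference window and no binding was measured.

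Levels of different members were compared per kilobase of exon, since the gene models differ in length from 712 bases (ATG8H) to 1864 bases (ATG8F). In WT after 72 h of darkness ATG8E averaged 222 ± 29.1 CPM per kilobase (SD, n = 2), ATG8B 204 ± 85.8, ATG8F 191 ± 8.8 and ATG8I 141 ± 0.93. The libraries of ATG8E and ATG8B overlapped, as did those of ATG8B and ATG8F. Below them came ATG8A at 82.5, ATG8C at 56.4, ATG8D at 28.2, ATG8H at 27.8 and ATG8G at 8.10 CPM per kilobase, and of these neighbours ATG8D and ATG8H overlapped. After 72 h of light the order in WT was ATG8F at 82.7, ATG8E at 66.9, ATG8I at 33.4, ATG8C at 29.3, ATG8A at 20.3, ATG8D at 9.56, ATG8H at 7.45, ATG8B at 6.34 and ATG8G at 3.70 CPM per kilobase, where the neighbours ATG8H and ATG8B overlapped.

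Per kilobase of exon in WT, ATG8B was the eighth of 9 after 72 h of light and among the top 3 after 72 h of darkness, and per kilobase of coding sequence it was the seventh in light. Its share of the family's summed level per kilobase in WT was 20.8% after 72 h of darkness, against 2.44% after 72 h of light and 2.30% at 0 h. The share of ATG8F was 21.3% and 18.7% in the WT libraries of 72 h of darkness, against 32.5% and 31.25% in those of 72 h of light, although its own level was higher in darkness. Per kilobase of coding sequence the dark shares in WT were 30.9% for ATG8F, 21.5% for ATG8B and 17.4% for ATG8E, so the order of these 3 depends on the length used. The summed CPM of the 9 members was 1039 and 1267 in WT after 72 h of darkness, against 304.4 and 350.9 after 72 h of light.

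**Figure D3:**
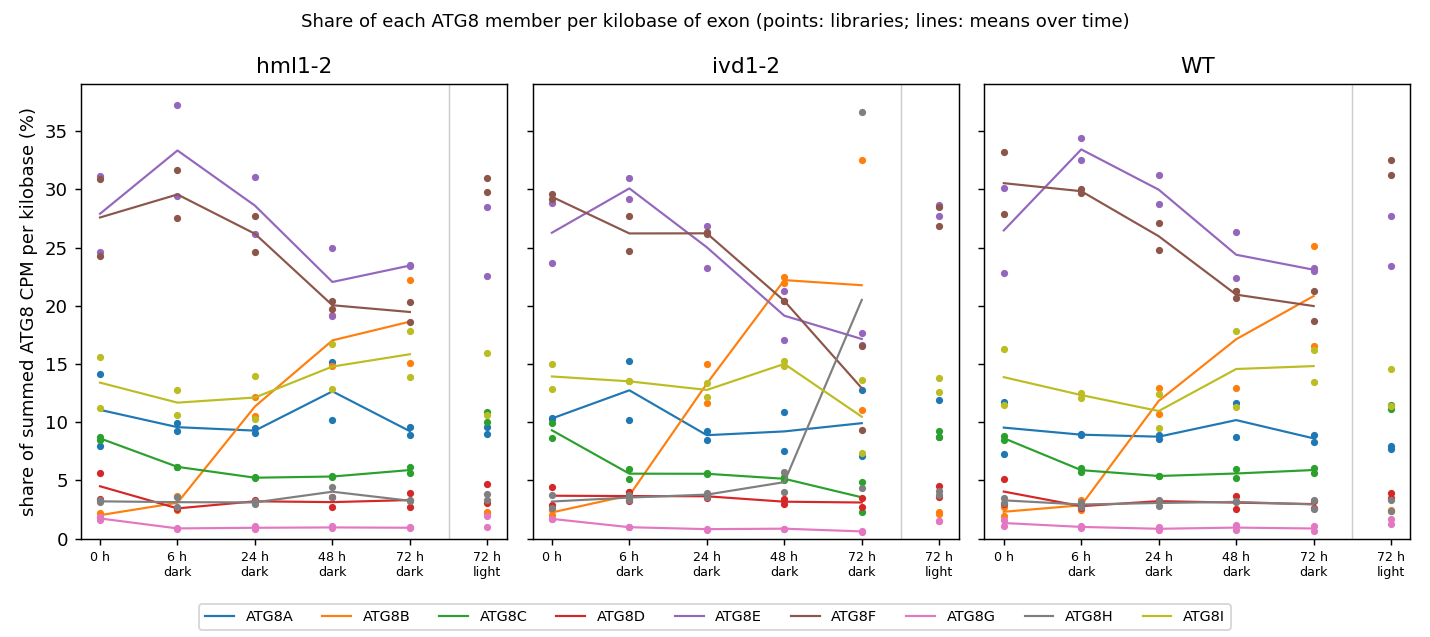
Share (%) of each ATG8 member in the summed ATG8 CPM per kilobase of exon at 0 h, through 72 h of darkness and after 72 h of light, in hml1-2, ivd1-2 and WT; points are libraries and lines join group means. ATG8B reaches 20.8% in WT after 72 h of darkness, against 2.30% at 0 h, and ATG8H takes 36.67% of 1 ivd1-2 library.

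In hml1-2 no member passed the test against WT in any condition. The counts were 0 of 9 at 0 h, 6, 24, 48 and 72 h of darkness and 72 h of light, against 0.00514%, 0.00514%, 0.0103%, 0.00514%, 0.00514% and 0.0103% of all genes (edgeR quasi-likelihood test), and 0 of 9 over the mean of the 6 conditions, against 0.0257%. No member had an unadjusted p under 0.05 in these tests, and DESeq2 gave 0 members. At 72 h of darkness the log2 differences of hml1-2 from WT lay between -0.01 and 0.34, with a median of 0.27 and edgeR quasi-likelihood adjusted p-values of 1. The difference between hml1-2 and WT in the dark over light change at 72 h passed for 0 of 9 members as well, against 0.00514%, with log2 values between -0.12 and 0.15. With few genes called anywhere in the table, these counts do not set the family apart from other genes.

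In ivd1-2 the counts against WT were 0 of 9 at 0 h, 6, 24 and 48 h of darkness and 72 h of light, against 0.0103%, 0.0154%, 0.488%, 3.71% and 0.0154% of all genes (edgeR quasi-likelihood test; DESeq2 also gave 0). At an unadjusted p under 0.05, ATG8E was lower than in WT at 24 and 48 h (log2 differences of -0.48 and -0.48) and higher at 72 h of light (0.50), with adjusted p-values of 0.527, 0.268 and 1, and 0 members reached it at 0 and 6 h. At 72 h of darkness 1 of 9 members passed, ATG8H, against 23.3% of all genes. DESeq2 called 3 members there, and the share of all genes in that fit was not computed. The edgeR count moved when either ivd1-2 library was left out, down without replicate 1 and up without replicate 2.

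ATG8H had 545.7 and 35.97 CPM in the 2 ivd1-2 libraries of 72 h of darkness, against 23.68 and 26.37 CPM in hml1-2 and 20.42 and 19.16 CPM in WT. Replicate 1 of ivd1-2 alone was far above the rest, and replicate 2 was also above the 4 libraries of the other genotypes. The log2 difference from WT was 3.88 (SE 0.67, edgeR quasi-likelihood adjusted p = 0.000611), and without replicate 1 it was 0.86 (adjusted p = 0.121). A fit of only these 2 groups gave 4.11 (edgeR quasi-likelihood adjusted p = 0.425), which does not pass. Averaged over the 6 conditions ATG8H was the 1 member that passed, against 16.5% of all genes, with a log2 difference of 0.95 (SE 0.25, edgeR quasi-likelihood adjusted p = 0.0144). Without that library the mean difference was 0.44 (adjusted p = 0.0126), and without its partner 3 members passed.

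The dark response of ATG8H differed between ivd1-2 and WT in the same way. The log2 fold change at 72 h of darkness over light was 4.96 in ivd1-2 (SE 0.70, edgeR quasi-likelihood adjusted p = 3.41e-06), against 1.90 in WT, and the test of the difference gave 3.06 (SE 0.87, adjusted p = 0.0489) for 1 of 9 members, against 4.52% of all genes. Against 0 h the difference was 3.84 (SE 0.89, adjusted p = 0.0190), again for 1 of 9 members, against 4.57%. Without replicate 1 of ivd1-2 at 72 h of darkness these were 0.07 (adjusted p = 0.972) and 0.83 (adjusted p = 0.444). The count over light was also 0 without any 1 of the other ivd1-2 and WT libraries concerned except replicate 2 of ivd1-2 in darkness. The count over 0 h was 0 without either ivd1-2 library of 0 h, replicate 1 of WT at 0 h or either WT library of 72 h, and 3 without replicate 2 of ivd1-2 in darkness. The rise within ivd1-2 itself remained without it, with a log2 fold change of 1.96 for ATG8H (adjusted p = 2.2e-05).

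ATG8A and ATG8D moved with ATG8H in that library. ATG8A had 252.2 and 77.45 CPM in ivd1-2 after 72 h of darkness, against 73.13 and 82.73 CPM in WT, and ATG8D had 67.83 and 30.08 CPM, against 26.69 and 26.47 CPM in WT. Neither passed against WT (log2 differences of 1.08 and 0.88, edgeR quasi-likelihood adjusted p = 0.0682 and 0.0747). Across the 9 members, 3 were over 2-fold higher in replicate 1 than in replicate 2, 33.3%, and 15.5% of all genes tested were. ATG8B went the other way, with 288.8 CPM in replicate 1 and 473.2 CPM in replicate 2.

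The same library was high in the sum of the salicylate defence markers, and other groups held pairs that parted in this sum. The single markers differed. In ivd1-2 at 72 h of darkness against light 0 of 5 rose and 2 fell, against 31.7% and 32.1% of all genes. Their log2 fold changes ran from -8.27 to 2.64, with a median of -5.31. In 6 of the 18 groups the summed markers PR1, PR2, PR5, ICS1 and PAD4 differed over 5-fold between the 2 libraries, a threshold chosen after the values were seen. The marker-high library was replicate 1 in 6 of these 6 groups, so the markers and the replicate number cannot be told apart here. ATG8A was higher in the marker-high library in 6 of these 6 groups, by 1.10 to 3.26 times, ATG8D in 6 of 6, by 1.30 to 2.26 times, and ATG8G in 6 of 6, by 1.22 to 2.06 times, and 12.2% of all genes tested were higher in 6 of 6. ATG8I was higher in 5, ATG8H in 4, ATG8B and ATG8C in 3 and ATG8E and ATG8F in 1. In the other 12 groups ATG8A was higher in the library with more marker reads in 5, with ratios of 0.821 to 1.90, ATG8D in 10, with 0.876 to 1.54, and ATG8G in 9, with 0.790 to 1.38. The 6 groups include 0 h, darkness and light and all 3 genotypes. The part of the markers in the ATG8 levels was not tested.

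**Figure D4:**
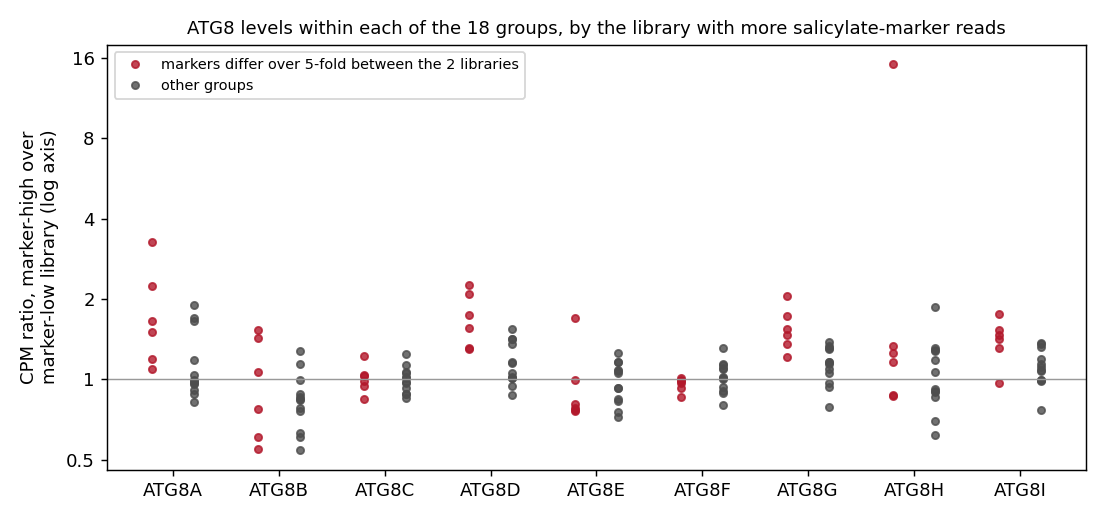
Ratio (log axis) of each ATG8 member's CPM in the library with more salicylate-marker reads to that in the other library of the same group, for the 6 groups whose markers differ over 5-fold (red) and the 12 other groups (grey). All 6 red points of ATG8A, ATG8D and ATG8G lie above 1, and the highest ATG8H point, at 15.2, is ivd1-2 after 72 h of darkness.

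Of 9 genes of ATG8 processing and conjugation at 72 h of darkness against light, 3 were higher, 2 lower and 4 passed in neither direction in WT, with a median log2 fold change of 0.57. Over all genes tested 31.9% were higher and 31.7% lower, so these counts lie near those of the whole table. ATG4A, a protease that trims ATG8, had 68.18 and 64.67 CPM in WT darkness, against 26.36 and 28.47 CPM in light (log2 1.28, SE 0.14, edgeR quasi-likelihood adjusted p = 6.58e-08). ATG3, the E2-like enzyme that passes ATG8 to the lipid, had 77.95 and 87.68 CPM, against 30.14 and 34.84 CPM (log2 1.35, SE 0.17, adjusted p = 4.82e-07). ATG16, a subunit of the complex that directs lipidation, had 41.2 and 46.33 CPM, against 18.82 and 18.9 CPM (log2 1.21, SE 0.15, adjusted p = 6.18e-07). The 2 that fell, named after their values were seen, were ATG5 and ATG12B, which encode partners that are joined to each other. ATG5 had 16.83 and 14.37 CPM in WT darkness, against 36.06 and 39.84 CPM in light (log2 -1.28, edgeR quasi-likelihood adjusted p = 0.000626).

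Of the receptors and adaptors that bind ATG8, 9 of 12 rose in WT at 72 h of darkness against light, with none lower. Over all genes tested 31.9% were higher and 31.7% lower. The median log2 fold change was 1.29 in the list and 0.01 over all genes. ATI1 and ATI2, ATG8-interacting proteins found on bodies of the endoplasmic reticulum and plastids, were the first 2 by p-value. ATI1 had 337.4 and 277.6 CPM in WT darkness, against 58.21 and 59.9 CPM in light (log2 2.38, SE 0.14, edgeR quasi-likelihood adjusted p = 1.05e-11). ATI2 had 218.9 and 177.7 CPM, against 35.35 and 39.69 CPM (log2 2.40, SE 0.22, adjusted p = 8.07e-09). TSPO, a heme-binding membrane protein, had 154 and 39.15 CPM in WT darkness, against 2 and 5 counts, 0.0504 and 0.150 CPM, in light (edgeR quasi-likelihood adjusted p = 1.22e-07), counts too few for a useful ratio. NBR1, the receptor for ubiquitinated cargo, named after its values were seen, had 1449 and 1123 CPM, against 118.5 and 117.4 CPM (log2 3.45, adjusted p = 2.81e-06).

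The 20 upstream genes tested act in initiation, lipid kinase signalling and membrane supply. At 72 h of darkness against light 17 of them rose and 1 fell in WT, against 31.9% and 31.7% of all genes. Their median log2 fold change was 0.92. ATG13A, a regulatory subunit of the ATG1 kinase complex, had 127 and 136.1 CPM in WT darkness, against 25.98 and 26.74 CPM in light (log2 2.32, SE 0.13, edgeR quasi-likelihood adjusted p = 1.35e-11). VPS15, the regulatory partner of the VPS34 lipid kinase, had 307.5 and 347.9 CPM, against 53.65 and 67.32 CPM (log2 2.44, SE 0.18, adjusted p = 4.85e-10). ATG18G, of a family that binds phosphoinositides, had 233.4 and 235.9 CPM, against 60.4 and 65.8 CPM (log2 1.89, SE 0.17, adjusted p = 7.44e-09). The gene that fell, named after its values were seen, was ATG18D, with 0.784 and 0.314 CPM, against 4.233 and 4.396 CPM (adjusted p = 0.00101). At 6 h against 0 h in WT, 6 of the 20 upstream genes, 8 of 12 receptors and 4 of 9 processing genes had risen, beside 8 of the 9 ATG8 members and 21% of all genes. The difference between the lists was not tested.

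In hml1-2 at 72 h of darkness against light, 3 of 9 processing genes, 10 of 12 receptors and 16 of 20 upstream genes rose, against 31.4% of all genes, and in ivd1-2 the counts were 6, 11 and 18, against 31.7%. Replicate 1 of ivd1-2 at 72 h of darkness held high levels of several of these genes. There 3 of 9 processing genes, 2 of 12 receptors and 8 of 20 upstream genes were over 2-fold above replicate 2, against 15.5% of all genes. Without replicate 1, which leaves 1 library in the group, fewer genes rose in ivd1-2. This held for each list, for the ATG8 members and for the whole table. Against WT at 72 h of darkness, 4 of 9 processing genes were higher in ivd1-2, 3 of 12 receptors were higher and 3 lower, and 9 of 20 upstream genes were higher and 1 lower, against 12.6% of all genes higher and 10.7% lower. Without that library 1 processing gene was higher, 0 receptors passed and 1 upstream gene was lower (edgeR quasi-likelihood test), and the share of all genes called was 5.57%. ATG7, the E1-like enzyme that activates ATG8, named after its values were seen, had 145.1 CPM in replicate 1 and 16.32 CPM in replicate 2 of ivd1-2, against 17.41 and 14.14 CPM in WT.

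**Figure D5:**
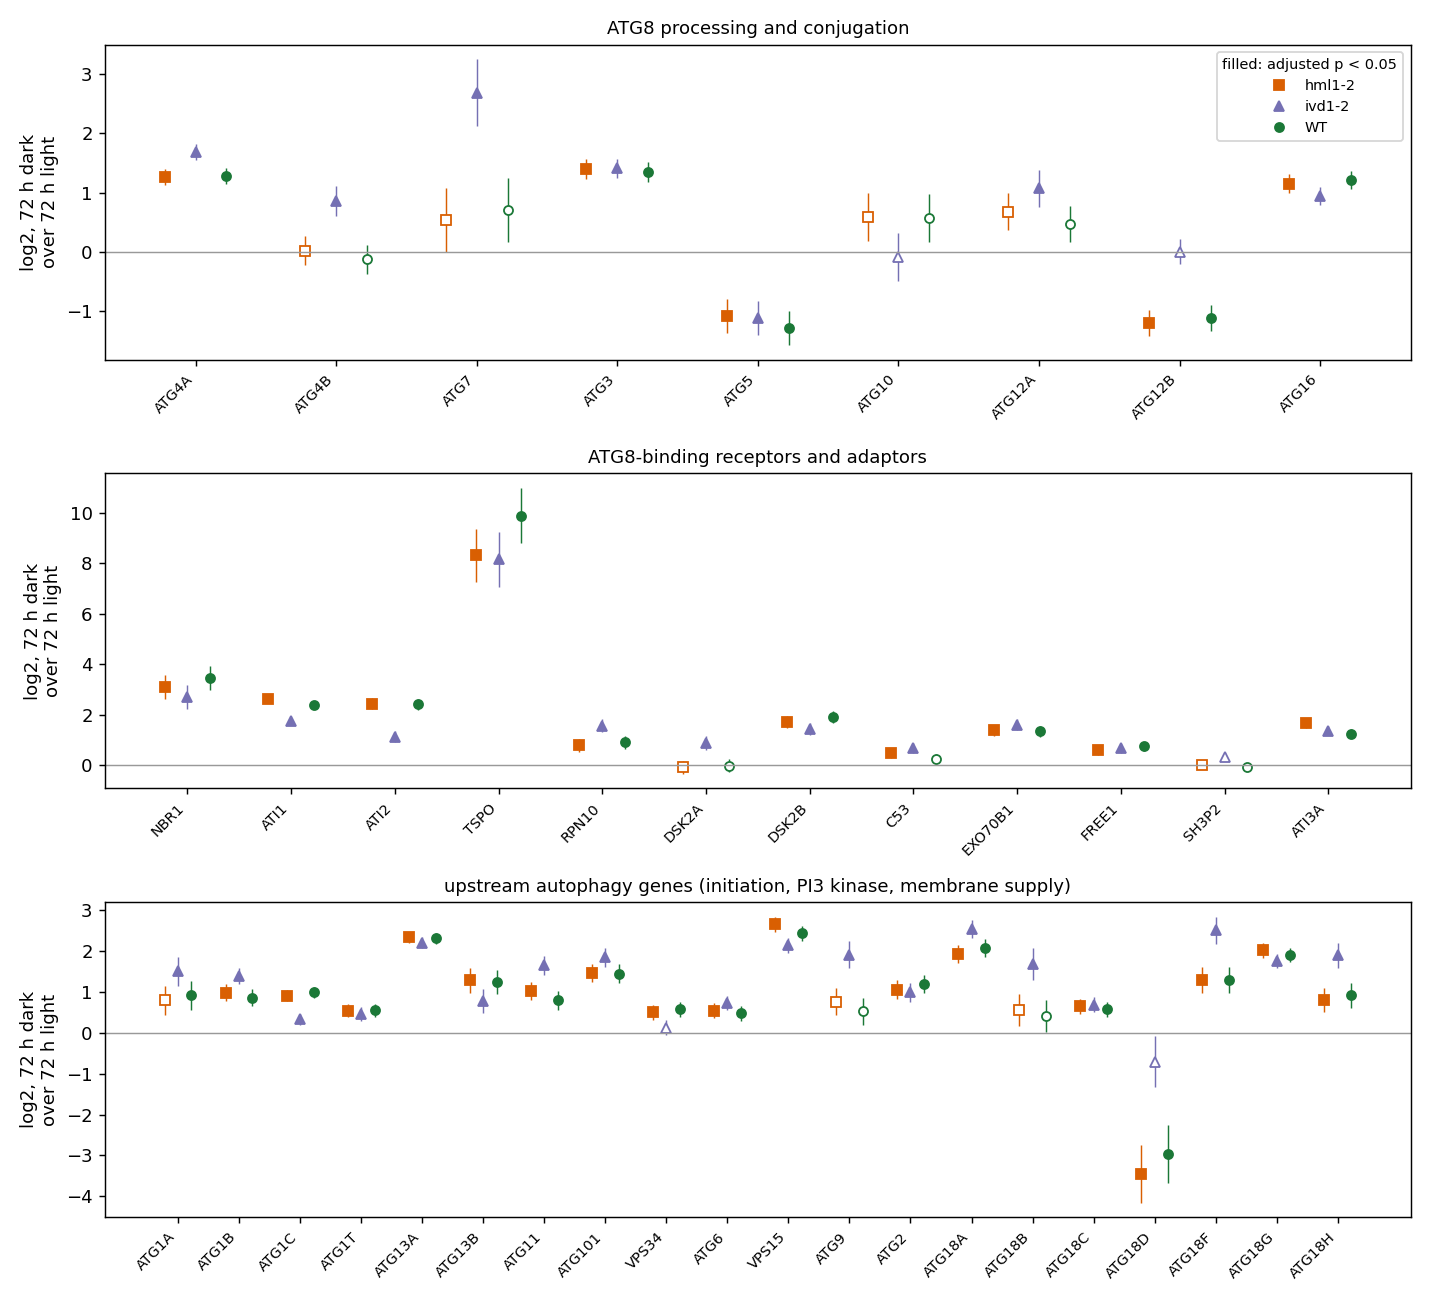
Fitted log2 fold change at 72 h of darkness over 72 h of light, with its standard error, for genes of ATG8 processing and conjugation, ATG8-binding receptors and adaptors, and upstream autophagy genes in hml1-2 (squares), ivd1-2 (triangles) and WT (circles); filled symbols have an adjusted p under 0.05. ATG5 lies below 0 in each genotype, at -1.28 in WT, and the ivd1-2 value of ATG7 is the highest of its panel, with 145.1 CPM in replicate 1 and 16.32 CPM in replicate 2.

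Genes whose profile over the 18 group means was most like that of a member were found by Pearson correlation of log2 CPM among 13040 genes that averaged 5 CPM or more. The group means share libraries and a strong contrast of dark against light, so high values are common. For ATG8B the highest were DIM1B at 0.998 and AT5G20610 at 0.997, for ATG8E AT1G02610 at 0.990 and KEU at 0.989, and for ATG8F AT2G22720 at 0.994 and AT4G20330 at 0.993. For ATG8I they were WRKY26 and AT5G64430, both at 0.996, and for ATG8H SEC3A and SAG24, both at 0.981. SAG24 averaged 581.8 ± 699.6 CPM (SD, n = 2) in ivd1-2 after 72 h of darkness, so that group's libraries part for it as they do for ATG8H. ATG8A gave PNC2 at 0.984 and SAG18 at 0.982, ATG8C gave SAP7 and AT3G50840 at 0.990, ATG8D gave AT1G76700 at 0.991 and DSS1(I) at 0.987, and ATG8G gave AT3G62590 at 0.975 and NF-YB13 at 0.972. Within the family the members most alike were ATG8E and ATG8F at 0.984 and ATG8A and ATG8D at 0.977, and the least alike were ATG8H and ATG8F at 0.746. Without replicate 1 of ivd1-2 at 72 h of darkness, an alternative chosen after seeing the data, SEC3A had 0.969 and SAG24 0.971 to ATG8H, PNC2 0.979 to ATG8A and AT1G76700 0.990 to ATG8D. ATG8H and ATG8F then had 0.895, and the least alike pair was ATG8B and ATG8E at 0.795.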

How the data were processed

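RNA was sequenced from 36 leaf libraries (Illumina HiSeq, TruSeq Stranded kit, per the labels' protocols). The authors deposited whole-number counts per locus for each library, not normalized. Per the submitters' processing notes, the tools were HTSeq, TopHat 1.4.1, Cuffdiff 2.1.1, Trimmomatic 0.30 and SAMtools 0.1.19, and the build was TAIR10. HTSeq's unassigned classes were left out: reads in no feature came to 0.582 to 1.47% of the assigned and unassigned counts together, and ambiguous reads to 1.70 to 2.36%. Genes were kept by edgeR's filterByExpr over the 18 groups (minimum count 10, minimum total 15), which removed loci holding 0.0119% of counts. One quasi-likelihood fit with a coefficient for each group and TMM scaling gave every test (edgeR 4.0.16, limma 3.58.1, R 4.3.3; 18 residual degrees of freedom), and p-values were adjusted over all 19457 genes. A standard error is the absolute log2 fold change divided by the square root of F. The fit was tested on simulated data. DESeq2 1.42.0 served as an alternative.

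Named genes were the 9 members, for each the 2 genes most like it, the 3 genes of each other list with the smallest p among those past the threshold in WT at 72 h of darkness against light, and IVD and HML1. Members and lists were chosen with earlier results of these data known. Gene models, names and sequences came from RefSeq's TAIR10.1, which matched 28009 of the 28774 loci by code. Alternatives were other size factors, no filter on low counts, a filter at a mean of 5 CPM, the DESeq2 test, a replicate block, only the groups compared, each library left out, and coding length.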

Additional observations from a re-analysis of the deposited data

Results flagged for a closer look

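ATG8H differed between ivd1-2 and WT in its change at 72 h of darkness. Over 72 h of light the log2 difference between the genotypes' changes was 3.06 (SE 0.87, edgeR quasi-likelihood adjusted p = 0.0489), and over 0 h it was 3.84 (SE 0.89, adjusted p = 0.0190). The level was 545.7 CPM in replicate 1 and 35.97 CPM in replicate 2 of ivd1-2 after 72 h of darkness, against 20.42 and 19.16 CPM in WT. Without replicate 1 the differences were 0.07 and 0.83 (adjusted p = 0.972 and 0.444). Groups of 2 libraries were too small for a test of single libraries within a group.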

How the results depend on the processing

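With 2 libraries a group, the counts of members moved mostly when 1 library was left out and the lone partner was assumed to vary like the other groups. Over these fits the count against 0 h was 5 to 8 in hml1-2 at 24 h and at 72 h, in ivd1-2 at 48 h and in WT at 6 h and at 72 h. The count in ivd1-2 between 48 and 72 h was 0 to 4, in ivd1-2 against WT at 72 h of darkness 0 to 4 and over the mean of conditions 1 to 3, and for the difference in the dark change 0 to 1 over light and 0 to 3 over 0 h. In WT against 0 h and at 72 h of darkness against light, the members whose calls were lost on leaving out a library were ATG8A, ATG8D, ATG8G and ATG8H. Without replicate 1 of ivd1-2 at 72 h of darkness the log2 difference from WT turned to -0.013 for ATG8A and -0.12 for ATG8E, neither of which passed before, and without replicate 2 it was 1.91 and 0.87. Fitting only the groups compared gave 2 members in ivd1-2 at 72 h of darkness over light, 2 in WT at 24 h over 6 h, and 0 in ivd1-2 at 72 h over 48 h, in ivd1-2 against WT at 72 h and for both differences in the dark change; such fits have fewer degrees of freedom. In ivd1-2 against WT at 72 h of darkness, 3 members passed with DESeq2 size factors, with a mean of at least 5 CPM and with the DESeq2 test, and in ivd1-2 between 48 and 72 h, 2 passed with the mean of at least 5 CPM and the DESeq2 test; the cause was not tested. DESeq2 size factors moved the median of all genes by over 0.1 for the differences in the dark change of ivd1-2 (0.12 over light and 0.12 over 0 h), where ATG8H had 3.25 and 4.03.

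Same-numbered libraries tended to deviate from their group means alike. The correlation of these deviations had a median of 0.274 over 153 pairs of groups and was over 0.1 in 120, though it fell as low as -0.33. The labels do not say whether such libraries pair, and the main fit held no term for the replicate number. The cause of the shared deviations was not tested. With the replicate block the counts were 9 in hml1-2 at 24 h and in ivd1-2 at 6 and 48 h against 0 h, and 2 in ivd1-2 between 48 and 72 h, and no other count differed. ATG8G had the fewest counts of the members, 44 to 546 a library.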
